A study of Mus musculus with 8 samples.

Results

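The genes described here are 10 transcripts of the cellular response to low oxygen: Hif1a, Vegfa, Bnip3, Egln1, Egln3, Adm, Ndrg1, P4ha1, Ankrd37 and Ddit4. They were chosen by symbol, as textbook targets or regulators of the hypoxia-inducible factor (HIF), and all 10 were found among the 55450 genes of the expression table. RNA came from cultures labelled as dendritic cells grown from bone marrow of SS dry eye mice. The 4 control libraries received PBS (vehicle) and the 4 treated libraries received recombinant S100A8/A9, an alarmin of calcium-binding S100 subunits from neutrophils and monocytes. The labels give no dose, time, strain, age, sex or oxygen level, and all 8 libraries share the disease model and the tissue of origin. They also do not say whether a replicate is a separate mouse or culture, so the p-values measure the spread between these libraries, which may be technical. The sample titles use an abbreviation usual for macrophages while the cell type field says dendritic cell. Of 14 dendritic cell markers, 9 passed the filter on low values and Cd209a was at 0 in replicates 1 to 3, and 10 of 10 macrophage markers passed it. Replicates 1 to 3 of both groups share 1 table with FPKM sums of 282921 to 303660, and replicate 4 of both groups comes from another with sums of 344166 and 331268. FPKM is the fragment count scaled to transcript length and library size. Gene lengths behind the tables may differ, so a gap in level between replicate 4 and the others cannot be told apart from one between tables. The replicate 4 values imply about 31900000 reads for the vehicle library and 33400000 for the treated one, and the depth of the other libraries is unknown.

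HIF is a transcription factor made of an oxygen-regulated alpha subunit, encoded by Hif1a or Epas1, and a stable partner, Arnt. When oxygen is present, prolyl hydroxylases of the Egln family mark the alpha subunit, the Vhl ubiquitin ligase binds it and the protein is degraded. When oxygen is short, the alpha subunit accumulates and genes for angiogenesis, glycolysis, mitophagy and matrix synthesis are transcribed, among them Egln1 and Egln3 themselves, which closes a feedback loop. In myeloid cells, HIF-1 alpha can also be raised by inflammatory signals through NF-kB and by metabolites without a fall in oxygen. RNA levels of Hif1a do not show how much protein is present.

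None of the 9 testable genes passed the threshold for S100A8/A9, an adjusted p under 0.05 in limma, a linear model fitted to all genes. Of all 11387 genes tested, 0 passed it. In a limma test of replicate number, 4 of the 9, Bnip3, Egln3, Vegfa and Ndrg1, passed, against 12.7% of all tested genes. When the filter on low values was dropped, 0 passed. Bnip3 in the vehicle libraries was 18.1 FPKM in replicate 1 and 7.35 FPKM in replicate 2, while its treated partners stood at 17.9 and 7.66 FPKM. Within replicates 1 to 3, to which every such order given here refers, 6 of the 9 were lowest in both libraries of replicate 2. Of all tested genes, 11.9% were. Hif1a and P4ha1, 2 of 10, were higher with S100A8/A9 in all 4 pairs, against 11.8% of genes. Their ratio was at most 1.19 in any pair. In such bulk cultures, fewer cells of a type and less RNA per cell cannot be told apart.

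HIF binds DNA at the short core sequences ACGTG and GCGTG. The promoter stretches of Bnip3, Egln3 and Ankrd37 are shown because these 3 genes had the widest ranges over replicate numbers among the 6 that were lowest in replicate 2, and Hif1a is shown as the regulator that did not share that order. Each is the part of the 250 bases before the RefSeq start (GRCm38.p6) that lies outside annotated exons, 5′ to 3′ on the gene's strand, with ACGTG or its reverse complement CACGT in capitals, overlapping as CACGTG where both occur.
Bnip3, chr7:138909520-138909756, minus strand: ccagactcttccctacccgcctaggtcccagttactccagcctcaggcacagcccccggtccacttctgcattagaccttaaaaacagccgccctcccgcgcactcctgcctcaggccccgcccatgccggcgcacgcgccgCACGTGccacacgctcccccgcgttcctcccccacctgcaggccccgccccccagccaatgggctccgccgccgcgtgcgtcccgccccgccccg
Egln3, chr12:54203875-54204124, minus strand: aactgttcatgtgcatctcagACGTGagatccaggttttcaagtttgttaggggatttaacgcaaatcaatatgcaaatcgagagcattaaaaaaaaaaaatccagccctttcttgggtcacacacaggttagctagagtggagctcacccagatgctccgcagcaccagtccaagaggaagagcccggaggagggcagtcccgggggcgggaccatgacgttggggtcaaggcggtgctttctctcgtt
Ankrd37, chr8:45999868-46000100, minus strand: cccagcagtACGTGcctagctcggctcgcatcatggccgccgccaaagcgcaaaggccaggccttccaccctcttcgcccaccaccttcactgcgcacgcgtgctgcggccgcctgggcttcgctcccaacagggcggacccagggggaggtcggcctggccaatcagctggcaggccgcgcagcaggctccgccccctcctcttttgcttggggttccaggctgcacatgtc
Hif1a, chr12:73907617-73907866, plus strand: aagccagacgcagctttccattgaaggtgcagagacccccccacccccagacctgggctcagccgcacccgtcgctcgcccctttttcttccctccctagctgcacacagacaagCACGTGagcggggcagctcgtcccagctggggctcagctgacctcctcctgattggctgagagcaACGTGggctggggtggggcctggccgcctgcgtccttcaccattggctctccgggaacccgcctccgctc

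Of the 10 genes, 9 had a RefSeq promoter window, and Ndrg1 had none in the table used. ACGTG was present on either strand of the 250 bases in the first window of 7 of these 9, and in at least 1 window of 8. All 5 windowed genes that were lowest in replicate 2 held it. Hif1a and Ddit4 held it too, as did Vegfa in window 2 alone, and none of these followed that order. Counted per gene over any window, 25.8% of tested genes held it. The members were chosen as textbook HIF targets or regulators, so their share beside this one is no test. The share of ACGTG among windows of all tested genes was 22.2%, against 16.6% of all 32851 windows, and GCGTG was in 45.3% and 28.2% of them. In Bnip3 the palindrome CACGTG began 108 bases before the start, and in Hif1a 135 bases before it. The Ankrd37 window held a second copy 6 bases before its start, in a stretch that other transcripts use as exon and that is therefore not printed. A match to these letters describes the sequence and is no measured binding site.

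Hif1a (ENSMUSG00000021109, chr12:73901375-73947530, plus strand, mm10), the regulated alpha subunit, was abundant in every library. In replicates 1, 2 and 3 in turn it stood at 32.1, 33.6 and 38.9 FPKM with vehicle and at 38.1, 38.6 and 39.5 FPKM with S100A8/A9. In replicate 4, whose table the authors made separately, it stood at 60.9 and 71.2 FPKM. The treated library was the higher one in every pair, but the groups overlapped, because vehicle replicate 3 lay above treated replicates 1 and 2. Within pairs the ratio of S100A8/A9 to vehicle was 1.19, 1.15, 1.02 and 1.17, and p was 0.125 in the exact two-sided sign-flip permutation test, which can go no lower with 4 pairs. In limma on log2(FPKM + 1), the difference over replicates 1 to 3 was 0.15 (SE 0.10, 95% interval -0.09 to 0.39, adjusted p = 1.00). With the replicate number as a block the adjusted p was 0.678. The interval without the block spans 0.94-fold to 1.31-fold, so a rise or fall larger than that lies outside it. Predicted genes overlap its exons by up to 191 bases on the other strand (Gm15283) and 148 bases on its own (Gm49321), and reads there cannot be told apart.

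Hif1a exceeded the sister subunit Epas1, which encodes HIF-2 alpha, in every library. The Hif1a to Epas1 FPKM ratio was 9.63, 14.1 and 23.5 in the vehicle replicates 1, 2 and 3, and 14.5, 17.7 and 22.6 in the treated ones. In replicate 4 the ratio was 62.7 with vehicle and 85.8 with S100A8/A9, although the gene lengths behind the 2 tables may differ. Both libraries of replicate 1 thus had the smallest ratio of their group and both of replicate 3 the largest in the first table. Epas1 itself was at 3.33 FPKM in vehicle replicate 1 and 1.66 FPKM in vehicle replicate 3, a spread that did not pass the test of replicate number (limma, adjusted p = 0.0945).

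**Figure D1:**
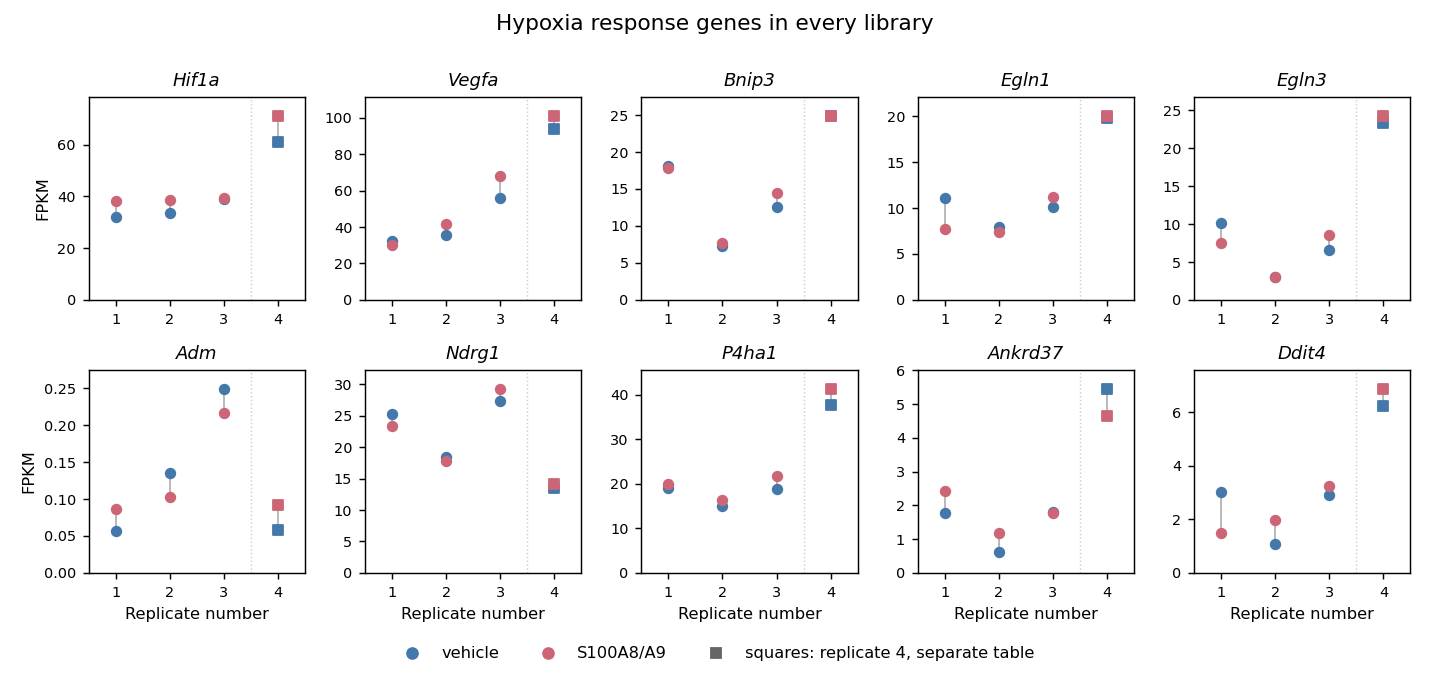
FPKM (y axis, linear and starting at 0) of the 10 genes in each library against replicate number (x axis), with vehicle in blue, S100A8/A9 in red, grey lines joining the libraries of a pair and squares for the separately made replicate 4 table. Points of a pair lie close together for most genes, and Bnip3 and Egln3 are lowest, at 7.35 and 3.01 FPKM, in vehicle replicate 2.

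The prolyl hydroxylases that act on HIF were all expressed. Egln1 (ENSMUSG00000031987, chr8:124908587-124949324, minus strand), which encodes PHD2, the main oxygen sensor of most cells, stood at 11.05, 7.98 and 10.1 FPKM in vehicle replicates 1 to 3. With S100A8/A9 it stood at 7.71, 7.42 and 11.2 FPKM, and in replicate 4 at 19.8 FPKM (vehicle) and 20.1 FPKM (S100A8/A9). Only pair 1 showed a clear gap, with the treated library at 0.698 of its vehicle partner, and pairs 3 and 4 lay the other way at 1.12 and 1.01. The limma difference was -0.14 (SE 0.18, 95% interval -0.56 to 0.28, adjusted p = 1.00), and 0.860 was its adjusted p with the block.

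Egln3 (ENSMUSG00000035105, chr12:54178981-54203860, minus strand), which encodes PHD3, a strongly HIF-inducible hydroxylase, had the widest range between replicate numbers 1 to 3 on the log2(FPKM + 1) scale of the 9 tested genes. Vehicle replicates 1, 2 and 3 held 10.2, 3.01 and 6.54 FPKM, and the treated ones 7.53, 3.08 and 8.55 FPKM. Replicate 4 held 23.3 FPKM (vehicle) and 24.3 FPKM (S100A8/A9). Replicate 2 was thus lowest in both groups and replicate 4 highest, while the pair ratios of 0.739, 1.02, 1.31 and 1.04 had no common direction. The limma difference was -0.01 (SE 0.43, 95% interval -1.02 to 1.01), so changes of up to about 2-fold either way were within the interval. With the block the interval narrowed to -0.35 to 0.33 (adjusted p = 0.998).

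Because both enzymes are read from the same library, their FPKM ratio does not depend on library scaling. Egln3 to Egln1 was 0.923, 0.377 and 0.649 in vehicle replicates 1 to 3 and 0.977, 0.415 and 0.761 in the treated ones. In replicate 4 it was 1.18 and 1.21. The treated ratio was the higher one in every pair by a small step, and replicate 2 had the smallest ratio of each group. The third hydroxylase, Egln2, which is not a classical HIF target, was lowest in both libraries of replicate 1, with 11.05 FPKM in the vehicle library and 11.5 FPKM in the treated one, and highest in both of replicate 3, at 14.2 and 15.5 FPKM. Replicate 4 lay between these, at 12.9 and 12.5 FPKM.

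Among the secreted signals, Vegfa (ENSMUSG00000023951, chr17:46016993-46032369, minus strand), the main angiogenic growth factor, had the highest FPKM of the 10 genes in 7 of 8 libraries. It stood at 32.3, 35.6 and 56.1 FPKM in vehicle replicates 1 to 3 and at 30.3, 41.7 and 67.8 FPKM in the treated ones. In replicate 4 it reached 93.8 FPKM (vehicle) and 101.2 FPKM (S100A8/A9). The order of the numbers, 1 below 2 below 3, was the same in both groups and was not the order of Egln3. The pair ratios were 0.938, 1.17, 1.21 and 1.08, with the treated library higher in 3 of 4 pairs. The limma difference was 0.13 (SE 0.31, 95% interval -0.59 to 0.86, adjusted p = 1.00), and the adjusted p with the block was 0.796. Vegfa relative to Hif1a was 1.01, 1.06 and 1.44 for vehicle and 0.795, 1.08 and 1.72 for S100A8/A9, so Vegfa differed between numbers 1 and 3 by more than Hif1a did.

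Adm (ENSMUSG00000030790, chr7:110627661-110629820, plus strand), which encodes the vasodilator peptide adrenomedullin and is strongly HIF-induced in macrophages and endothelium, was near the detection limit. Vehicle replicates 1 to 3 held 0.0566, 0.135 and 0.249 FPKM, the treated ones 0.0868, 0.103 and 0.216 FPKM, and the replicate 4 libraries 0.0581 and 0.0925 FPKM. The last 2 values correspond to 3 and 5 reads. As no library reached 1 FPKM, Adm did not pass the filter and was not tested. Its receptor chain Calcrl was present at 3.80, 3.78 and 2.89 FPKM in the vehicle and 4.32, 4.39 and 3.93 FPKM in the treated libraries, and its limma difference of 0.22 did not pass the threshold (adjusted p = 1.00; 0.642 with the block).

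Bnip3 (ENSMUSG00000078566, chr7:138890836-138909519, minus strand) encodes a mitochondrial outer membrane protein that marks mitochondria for removal in low oxygen. It stood at 18.1, 7.35 and 12.6 FPKM in vehicle replicates 1 to 3 and at 17.9, 7.66 and 14.5 FPKM with S100A8/A9, and both replicate 4 libraries gave 24.9 FPKM. The partners in a pair nearly coincided, with ratios of 0.992, 1.04, 1.15 and 1.00, while the means of numbers 1 to 3 spanned 2.23-fold on the log2(FPKM + 1) scale. The limma difference was 0.08 (SE 0.36, 95% interval -0.78 to 0.93), and with the block the interval was -0.10 to 0.26 (adjusted p = 0.875). Some reads of Bnip3 could belong to the predicted gene Gm45507, whose exons overlap it by up to 342 bases on the other strand, as the protocol does not state strand marking.

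The paralog Bnip3l, which has the same role and is also a HIF target, was steadier. It stood at 39.9, 36.6 and 38.4 FPKM (vehicle) and 41.7, 37.3 and 38.9 FPKM (S100A8/A9). Bnip3 relative to Bnip3l was therefore 0.453, 0.201 and 0.328 with vehicle, 0.430, 0.205 and 0.373 with S100A8/A9 and 0.362 and 0.364 in replicate 4. Bnip3l too was lowest in both libraries of replicate 2, by a much smaller step, and did not pass the test of replicate number (limma, adjusted p = 0.376).

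**Figure D2:**
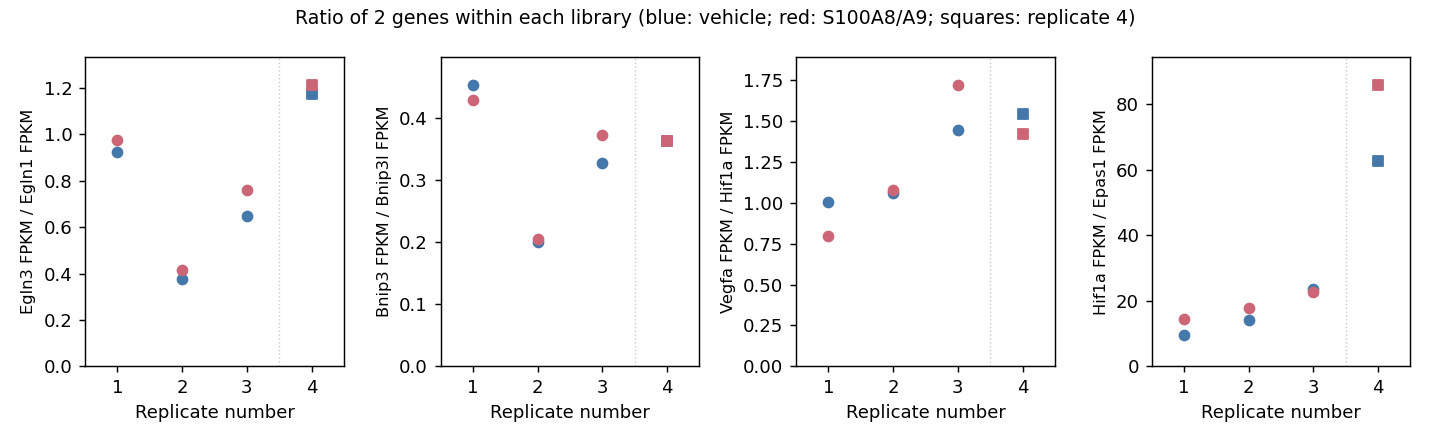
FPKM ratio of a pair of genes within each library (y axis, linear from 0) against replicate number (x axis), with blue for vehicle, red for S100A8/A9 and squares for the replicate 4 table. Egln3 to Egln1 and Bnip3 to Bnip3l dip at replicate 2 in both groups, to 0.377 and 0.201 with vehicle, whereas Vegfa to Hif1a and Hif1a to Epas1 do not.

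Ndrg1 and Ddit4 are stress-induced brakes on growth. Ndrg1 (ENSMUSG00000005125, chr15:66929318-66969640, minus strand) stood at 25.3, 18.5 and 27.3 FPKM under vehicle and 23.4, 17.8 and 29.3 FPKM under S100A8/A9. It was the only one of the 9 tested genes that was lower in replicate 4, at 13.6 and 14.1 FPKM, than in every library of the first table. Pair ratios were 0.927, 0.962, 1.07 and 1.04, and the limma difference was -0.02 (SE 0.21, 95% interval -0.50 to 0.46; adjusted p = 1.00; 0.978 with the block). Within the first table, Ndrg1 was lowest in both libraries of replicate 2 and highest in both of replicate 3. Exons of the predicted genes Gm17035 and Gm2895 overlap it on the other strand by up to 329 and 137 bases.

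Ddit4 (ENSMUSG00000020108, chr10:59949669-59951834, minus strand), also known as REDD1, restrains mTORC1 and responds to HIF, to ATF4 and to glucocorticoids. Of the 9 tested genes it had the largest within-pair difference: 3.04 FPKM (vehicle) and 1.48 FPKM (S100A8/A9) in pair 1, and 1.07 and 1.97 FPKM in pair 2. In pair 3 these were 2.93 and 3.27 FPKM and in replicate 4 6.24 and 6.89 FPKM. Pairs 1 and 2 therefore moved in opposite directions, with ratios of 0.486 and 1.84, while those of pairs 3 and 4 were 1.115 and 1.105. The limma difference was -0.02 (SE 0.31, 95% interval -0.74 to 0.69; adjusted p = 1.00; 0.995 with the block).

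P4ha1 (ENSMUSG00000019916, chr10:59323296-59373304, plus strand) encodes the catalytic subunit of collagen prolyl 4-hydroxylase. It stood at 19.0, 15.1 and 18.8 FPKM in vehicle replicates 1 to 3, at 19.97, 16.4 and 21.8 FPKM in the treated ones, and at 37.8 and 41.4 FPKM in replicate 4. The treated library was higher in every pair, at 1.05, 1.08, 1.16 and 1.09 of its partner, with treated replicate 2 below vehicle replicates 1 and 3. The exact two-sided sign-flip permutation test gave p = 0.125, and the limma difference was 0.13 (SE 0.14, 95% interval -0.20 to 0.45; adjusted p = 1.00; 0.736 with the block). Its sister P4ha2, also a HIF target, was scarce, at 2.57, 0.897 and 1.70 FPKM (vehicle) and 1.32, 0.920 and 1.28 FPKM (S100A8/A9).

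Ankrd37 (ENSMUSG00000050914, chr8:45996902-46005707, minus strand), an ankyrin repeat gene known as a direct HIF-1 target, was low. Vehicle replicates 1 to 3 held 1.78, 0.623 and 1.79 FPKM and the treated ones 2.43, 1.17 and 1.77 FPKM. Replicate 4 held 5.46 and 4.65 FPKM, from 268 and 239 reads. The first 2 pairs were higher with S100A8/A9, at 1.36 and 1.88, and the other two were lower, at 0.986 and 0.851. Its limma difference of 0.24 (SE 0.26, 95% interval -0.38 to 0.85; adjusted p = 1.00; 0.788 with the block) was the largest of the 9, on a scale that understates changes of low genes. It was 0.41 with a pseudocount of 0.1 and 0.13 in the fit of all 8 libraries. Exons of Lrp2bp and Ufsp2 on the other strand overlap it by up to 259 and 57 bases, and reads there cannot be assigned to either gene.

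Over all 9 tested genes, limma called 0 for S100A8/A9 at an adjusted p under 0.05, against 0% of the 11387 genes tested. At an unadjusted p under 0.05 it also counted 0 of 9, against 3.02%. With the replicate block it called 0 of 9, against 0.518% of all genes (0.501% higher), and 0 of 9 at an unadjusted p under 0.05, against 7.97%. In the fit of all 8 libraries with the block, Hif1a and P4ha1 passed an unadjusted p under 0.05, 2 of 9 against 8.1% of genes. Their adjusted p-values in that limma fit were 0.412 and 0.544. The differences were above 0 for 5 genes and below 0 for 4, with a median of 0.08, beside a median of 0.02 over all tested genes. The members' median turned to -0.18 without vehicle replicate 2 and to -0.17 without S100A8/A9 replicate 3. The 2 of 10 genes that were higher in all 4 pairs compare with 11.8% of genes (19.4% over pairs 1 to 3 alone) and the 0 of 10 that were lower with 4.49%. None of the 10 had groups that did not overlap in replicates 1 to 3, against 6.65% of tested genes.

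**Figure D3:**
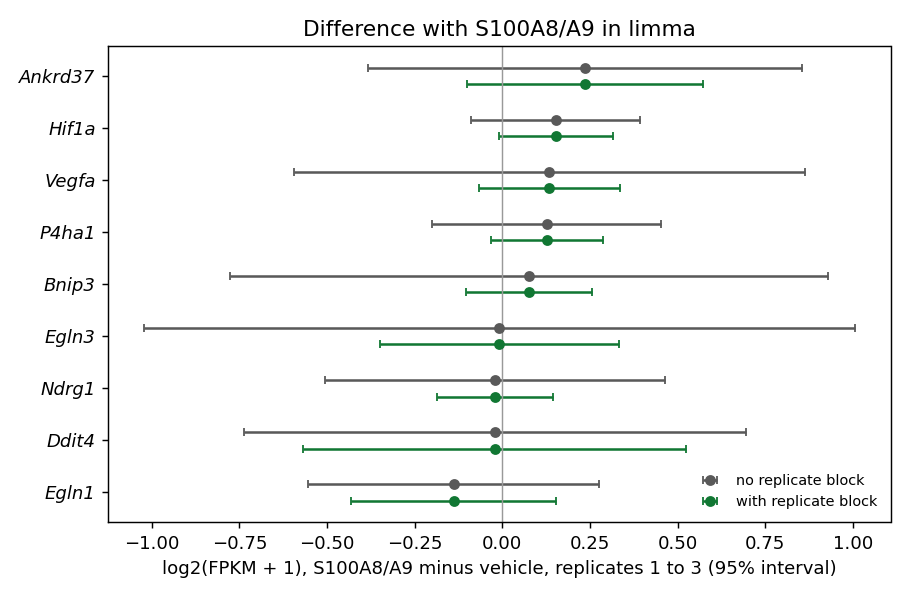
limma difference in log2(FPKM + 1), S100A8/A9 minus vehicle, over replicates 1 to 3 (x axis), for the 9 tested genes (y axis), as points with 95% intervals, grey without and green with the replicate number as a block. Every interval includes 0 in both fits, from -1.02 to 1.01 for Egln3 without the block.

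Replicate number, in contrast, separated several of these genes. A limma F test of number, given the group, passed 4 of 9: Bnip3 (adjusted p = 0.00265), Vegfa (0.00694), Egln3 (0.0127) and Ndrg1 (0.0154). Over all tested genes it passed 12.7%. This test was chosen after the values had been seen, it rests on 2 libraries for each number, and the meaning of a number is not given in the labels. Without S100A8/A9 replicate 2, Ndrg1 had an adjusted p of 0.0653, and without S100A8/A9 replicate 3, Vegfa had 0.0556, whereas Bnip3 and Egln3 passed without any one library. With no filter on low values, which raised the number of genes tested to 55450, none of the 4 passed, and the adjusted p-values were 0.250 for Bnip3 and 0.493 for Egln3. The range of the number means on the log2(FPKM + 1) scale was 1.27 for Egln3, 1.16 for Bnip3 and 0.96 for Vegfa, and 138, 199 and 366 were their ranks by that range among 11387 genes. The median range was 0.72 over the 9 genes and 0.26 over all tested genes, while the median of the largest within-pair difference was 0.27 and 0.23. For 7 of 9 genes the range over numbers exceeded the largest within-pair difference, against 53.5% of all tested genes. The exceptions were Hif1a, at 0.16 and 0.24, and Egln1, at 0.42 and 0.47.

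The numbers were ordered in more than one way. Bnip3, Egln1, Egln3, Ndrg1, P4ha1 and Ankrd37, 6 of the 9 tested genes, were lowest in both libraries of replicate 2 within the first table, against 11.9% of tested genes. In Hif1a, Vegfa and Ndrg1, 3 of 9, both libraries of replicate 3 were highest in that table, against 28.2%. Hif1a and Vegfa were lowest in both libraries of replicate 1, as was Adm at its very low level. Ddit4 was lowest in replicate 2 with vehicle but in replicate 1 with S100A8/A9. In replicate 4, Ndrg1 was below both libraries of replicate 2, and Hif1a and Vegfa were above both of replicate 3. Of the 6 genes lowest in replicate 2, Egln1, P4ha1 and Ankrd37 did not pass the limma test of replicate number (adjusted p = 0.200, 0.0627 and 0.0676). Hif1a did not pass it either (adjusted p = 0.373), so the orders of these genes are described only.

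**Figure D4:**
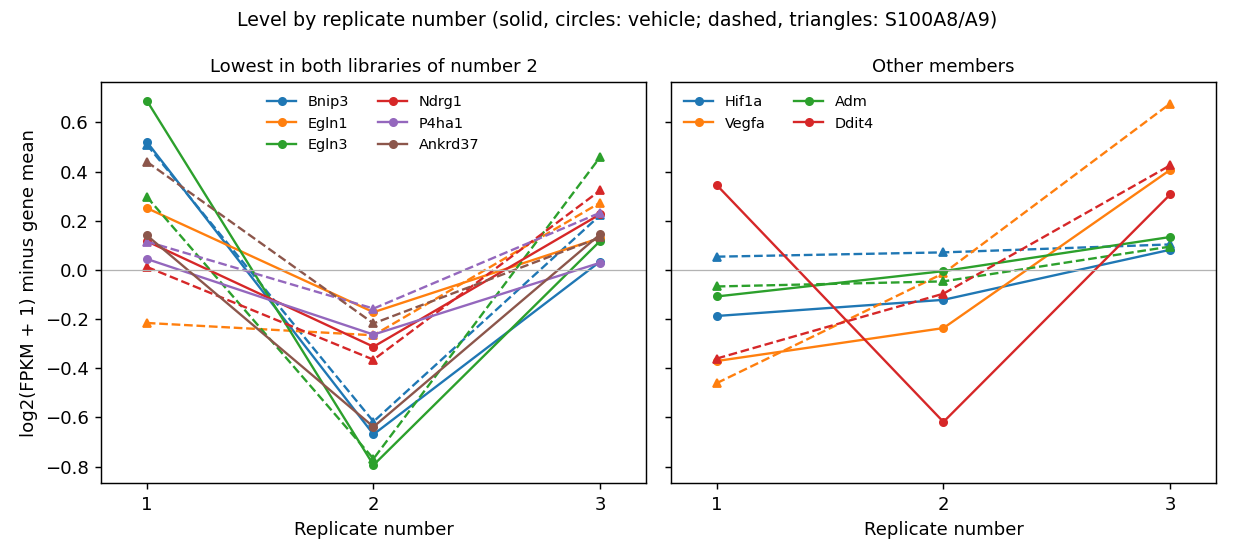
Level of each gene as log2(FPKM + 1) minus its mean over the 6 libraries (y axis) against replicate number (x axis), solid lines with circles for vehicle and dashed lines with triangles for S100A8/A9, the lines only linking values of 1 gene. The left panel holds the 6 genes lowest in both libraries of number 2 and the right panel the others, in which Vegfa is lowest in number 1 and highest in number 3.

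Markers of cell types also differed between numbers, and their part in these values was not tested. The mean log2(FPKM + 1) of 10 macrophage markers was 5.93, 5.18 and 4.67 in vehicle replicates 1 to 3 and 6.06, 5.27 and 4.79 in the treated ones, and 10 of 10 passed the test of number, against 12.7% of all tested genes. So did 7 of 9 dendritic cell, 5 of 5 neutrophil and 4 of 4 erythroid markers tested. Dendritic cell markers gave 4.32, 4.10 and 4.25 for vehicle and 4.35, 4.06 and 4.31 for S100A8/A9, and 3 of the 9 tested were lowest in both libraries of replicate 2. Summed over the list, macrophage markers ranged from 767 to 1030 FPKM with vehicle and from 852 to 1097 FPKM with S100A8/A9, and dendritic cell markers from 3648 to 5467 and from 3946 to 5501 FPKM. Neutrophil markers were lowest in replicate 1 and highest in replicate 3 in both groups, with means of 1.44 and 2.16 (vehicle) and of 1.45 and 2.13 (S100A8/A9), and sums between 125 and 233 FPKM. Erythroid markers had means of 0.37, 0.77 and 2.30 for vehicle and 0.47, 0.70 and 2.15 for S100A8/A9, with sums from 3.21 to 129 FPKM and from 4.71 to 115 FPKM. Within replicates 1 to 3, the macrophage mean was lowest in replicate 3 of both groups, and the neutrophil and erythroid means in replicate 1. The dendritic cell mean was lowest in replicate 2 of both groups, as Bnip3 and Egln3 were. On the dendritic cell list, Cd74, H2-Aa and H2-Ab1 were instead lowest in both libraries of replicate 3. Ccr7, also abundant, was lowest in both of replicate 2, at 141 (vehicle) and 143 FPKM (S100A8/A9), and highest in both of replicate 3. These markers were named after their values were seen. Cd74 stood at 2752 and 2530 FPKM in vehicle replicates 2 and 3, and at 2826 and 2779 FPKM in the treated ones. In the separately made replicate 4 table (vehicle, then S100A8/A9) the dendritic cell mean was 4.08 and 4.06 and the erythroid mean 0.36 and 0.45. Bnip3 and Egln3 had their highest values there, and levels in the tables may not be comparable gene by gene. At least 1 gene was at 0 in all 6 libraries for the dendritic cell (Cd209a), mast cell (Mcpt4) and stromal (Lum) lists.

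The wider HIF pathway was read from lists fixed with earlier results of these data known. Of 22 HIF subunits and regulators, 20 were tested, and 0 were called with or without the block. Of all tested genes, 0.518% were called with the block and 0% without it. The median difference of the 20 was 0.04. Siah1a, a ubiquitin ligase that targets hydroxylases, was highest at 0.22 and the Vhl-complex subunit Eloc lowest at -0.10. Of the 20, 2 were higher with S100A8/A9 in all 4 pairs and 1, Vhl itself, was lower, against 11.8% and 4.49% of all tested genes. Vhl stood at 9.61, 9.003 and 12.8 FPKM in vehicle replicates 1 to 3 and 9.002, 8.37 and 11.9 FPKM in the treated ones. That gene was named after its values were seen, and its difference of -0.09 had an adjusted p of 1.00 (0.840 with the block). Of these 20 regulators, 2 were lowest in both libraries of replicate 2, a share near the 11.9% of all tested genes.

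Of 42 other non-glycolytic HIF targets, 32 were tested, with a median difference of 0.03. Without and with the block 0 were called, against 0% and 0.518% of all tested genes. Hilpda, which encodes a lipid droplet protein that restrains fat breakdown, came nearest to the threshold. It stood at 6.04, 5.24 and 8.59 FPKM under vehicle and 8.62, 8.12 and 14.5 FPKM under S100A8/A9, and in replicate 4 at 18.7 and 23.5 FPKM. Hilpda was higher in all 4 pairs, by 1.55-fold as the geometric mean of pairs 1 to 3, but the groups overlapped, as treated replicate 2 lay below vehicle replicate 3. Its limma difference was 0.56 (SE 0.24, adjusted p = 1.00), and 0.0570 was the adjusted p with the replicate block, 0.167 in the block fit of all 8 libraries. The lowest difference on the list was that of P4ha2, at -0.28. In this list 13 of 32 genes were lowest in both libraries of replicate 2, against 11.9% of all tested genes, and 11 of 32 passed the test of number, against 12.7%.

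Glycolytic HIF targets were abundant, and all 20 were tested. For S100A8/A9, 0 were called without and with the block, against 0% and 0.518% of all tested genes. The median difference was 0.02, from -0.28 for Pdk1, a pyruvate dehydrogenase kinase, to 0.20 for the glucose transporter Slc2a3. Pdk1 had values of 3.74, 1.48 and 3.31 FPKM in the vehicle and 2.02, 1.39 and 2.91 FPKM in the treated libraries, lowest in replicate 2 in both groups as in Bnip3. Of the 20, 8 were lowest in both libraries of replicate 2 (11.9% of all tested genes), 12 were highest in both of replicate 3 (28.2%) and 11 passed the test of number (12.7%). Genes named after their values were seen show both orders. Pfkl, a phosphofructokinase, held 19.1, 9.65 and 17.0 FPKM (vehicle) and 16.1, 11.2 and 21.1 FPKM (S100A8/A9). Slc2a1, the main HIF-driven glucose transporter, held 21.7, 14.7 and 20.8 FPKM with vehicle and, with S100A8/A9, 19.2, 14.5 and 26.4 FPKM. Pgk1 instead held 89.8, 94.3 and 149 FPKM under vehicle and 92.2, 94.0 and 164 FPKM under S100A8/A9, an order closer to that of Vegfa.

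Lists around single members gave no call in either fit, against 0% of all tested genes without the block and 0.518% with it. Of 9 VEGF ligands and receptors, 5 were tested, with a median of 0.08, from -0.06 for the receptor Flt1 to 0.17 for the co-receptor Nrp2, and 0 were lowest in both libraries of replicate 2. Of 7 genes around adrenomedullin, 2 were tested, Calcrl and Ramp3 (0.07). Among 14 tested mTORC1 brakes and ATF4 targets the median was 0.03, from -0.19 for Sesn1 to 0.19 for Trib3. Among 7 glucocorticoid-responsive genes it was 0.02, from -0.06 for Per1 to 0.23 for Dusp1. The 11 tested mitophagy genes had a median of 0.03, from -0.19 for Pink1 to 0.13 for Calcoco1, and 3 of them were lowest in both libraries of replicate 2. The 7 tested genes of the collagen hydroxylation list had a median of -0.05, with Plod3 highest at 0.10. No collagen on that list passed the filter, so none was tested. Of the NDRG family, Ndrg3 gave 0.14 and Ndrg4 gave -0.11.

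By level, Vegfa, Hif1a, Ndrg1 and P4ha1 held the first 4 places by FPKM in all 6 libraries of the first table, with Hif1a above Vegfa in S100A8/A9 replicate 1 alone, and Adm was last in all 8. Below them, Egln1 stood above Bnip3 in vehicle replicate 2 alone, and Ankrd37 above Ddit4 in S100A8/A9 replicate 1 alone. Vegfa and Hif1a had means of 41.3 ± 12.9 and 34.9 ± 3.56 FPKM with vehicle (SD, n = 3). Within those vehicle libraries Vegfa was at 1.01, 1.06 and 1.44 of Hif1a, and the difference between the genes was not tested. Bnip3, Egln1 and Egln3 had overlapping values, at 12.7 ± 5.35, 9.70 ± 1.57 and 6.58 ± 3.59 FPKM with vehicle (SD, n = 3). In replicate 4 Ndrg1 took place 7 and Egln3 stood above Egln1.

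Genes with the most similar pattern over the 6 libraries were sought among 6362 tested genes whose mean FPKM was 5 or more. Closest to Hif1a were Resf1, Pdrg1 and Rab8b, with Pearson r of 0.99, 0.99 and 0.98 on log2(FPKM + 1), and 54 candidates reached 0.9. Closest to Vegfa were Atg4b, Slc40a1 and Rps3a1, each with r of 1.00 after rounding, and 741 candidates reached 0.9. With 6 libraries from 1 table, in pairs, such values describe a shared order. Rps3a1 ran only from 265 to 305 FPKM, a far narrower range than that of Vegfa.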

How the data were processed

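Gene expression was measured by poly(A) RNA sequencing in 4 vehicle and 4 S100A8/A9 libraries. The authors deposited 1 value per Ensembl gene, taken as FPKM from the values themselves, since no header or label states the unit; sums differ between libraries and, in replicate 4, 98.55% and 98.77% of values worth up to 20 reads are whole reads within 0.01 read given exon length. In replicates 1 to 3 at most 6.14% are. Tools named in the submitters' processing notes, without roles, are DESeq2 1.34.0, featureCounts (Subread) and HISAT2, on mm10. The authors' 2 tables list 55450 and 24848 genes, 24388 in both, and were never tested together except in named alternatives.

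The values were tested as log2(FPKM + 1) with limma 3.58.1 (trend) in R 4.3.3 on replicates 1 to 3, with group as the only term. Genes needed at least 1 FPKM in 3 of the 6 libraries, which 11387 did, and p-values were two-sided and adjusted by Benjamini-Hochberg over all of them. Only the fit without the block and the test of replicate number were tried on simulated data, with independent noise for each library. Libraries of the same replicate number deviated together from their group means (r = 0.59, 0.25 and 0.52; different numbers -0.53 to -0.01), and were therefore treated as pairs; the fit with the number as a block is given beside results. The members and lists were chosen with earlier results of these data known. Named are all 10 members and, from each pathway list, tested genes with the largest or smallest difference, plus those stated as named after their values were seen. Outside that rule, Epas1, Egln2 and Bnip3l are given as relatives of members. Genes that overlap members, genes of the most similar pattern and markers at 0 are named as well. Positions are from GENCODE M21 on mm10, and promoter sequences from RefSeq. Alternatives were the block, a pseudocount of 0.1, no filter, 2 scalings, all 8 libraries and leaving out libraries. No libraries were identical.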

Additional observations from a re-analysis of the deposited data

How the results depend on the processing

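No member was called for S100A8/A9 under any alternative run, and no member changed sign with median-of-ratios or upper-quartile factors. The number of genes called was 0 without the block and 59 with the replicate block, 57 of them higher, but 0 in the fit of all 8 libraries with the block. Without a filter it was 1, and leaving out single libraries gave 0 to 1 (1 without vehicle replicate 2). With the block it was 42, 95 and 5 without replicate 1, 2 and 3, and 3 with either scaling, alternatives chosen after seeing the data. The members' median of 0.08 ranged from -0.18 to 0.17 when 1 library was left out, lowest without vehicle replicate 2 and, at -0.17, without S100A8/A9 replicate 3. Leaving out 1 library unbalances the numbers by construction. Over these fits the difference ranged from -0.17 to 0.40 for Vegfa, -0.24 to 0.40 for Bnip3, -0.41 to 0.37 for Egln3, -0.19 to 0.16 for Ndrg1, -0.0249 to 0.40 for Ankrd37, -0.34 to 0.15 for Ddit4, 0.10 to 0.23 for Hif1a, 0.03 to 0.24 for P4ha1 and -0.31 to -0.04 for Egln1. Egln3 (0.0085) and Ddit4 (0.0148) turned positive in both fits of all 8 libraries. With the replicate block and without replicate 1, Egln1 (0.0250), Egln3 (0.18), Ndrg1 (0.0220) and Ddit4 (0.32) did too. The cause was not tested. For replicate number, 4 members and 1450 genes were called, 0 and 0 without a filter, where 55450 genes were tested, and 3 to 4 members and 516 to 1244 genes without 1 library (516, 639 and 599 without S100A8/A9 replicate 1, vehicle replicate 1 and S100A8/A9 replicate 3). The block changed no other call. The depth of replicates 1 to 3 is unknown, which leaves the counting error of Adm, Ankrd37 and Ddit4 there unmeasured.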
